A study of Homo sapiens with 14 samples.

Results

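The endoplasmic reticulum (ER) folds secreted and membrane proteins, and 31 genes of its chaperones and of ER-associated degradation were followed in PANC-1, an established human cell line of pancreatic ductal carcinoma. The genes were chosen by name, with earlier results of these data known. Their counts beside all tested genes are therefore a description and no independent test. For each, the brightest probe set over all 14 arrays was kept among the probe sets that name exactly 1 gene, which gave a value for 31 of 31 genes out of 18129 genes on the array. Of these, 30 were among the 10877 genes bright enough to be tested. The remaining gene, ERN1, lay below the limit and is given by level alone.

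All cells were grown in 10% serum and moved to 1% serum for 24 h before a treatment of 48 h. From each sample, 200 ng of RNA was labelled for an Affymetrix 3-prime expression array. Control cells received vehicle (n = 4), and the TGFb1 group received transforming growth factor beta 1 at 5 ng/ml (n = 4). The other groups received the same TGFb1 together with acriflavine at 2.5 µM (n = 3) or with sodium valproate at 2 mM (n = 3). TGFb1 is a cytokine known to drive the epithelial-mesenchymal transition of carcinoma cells, acriflavine is a mixture of acridine dyes, and valproate inhibits histone deacetylases. Per the labels the replicates are biological. Both inhibitor groups carry TGFb1, so neither shows an inhibitor by itself, and acriflavine without TGFb1 was not analysed here. The model is 1 established line in culture, and every value is the RNA of a whole culture, in which fewer cells of a kind and less RNA per cell cannot be told apart.

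Proteins enter the ER through the SEC61 channel and are folded there by HSPA5 and its partners, by disulfide isomerases and by the lectin chaperones CALR and CANX. Chains that do not fold are recognised by ERAD lectins, moved back to the cytosol through a complex built around the SYVN1 ligase and its adaptor SEL1L, and pulled out by the ATPase VCP. When unfolded proteins accumulate, the sensors ERN1, EIF2AK3 and ATF6 start the unfolded protein response. ERN1 then splices the mRNA of the transcription factor XBP1, and XBP1 and ATF6 raise the transcription of chaperone and ERAD genes. Pancreatic secretory cells are known for a high load on this system.

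XBP1 and ATF6 are known to act through the ER stress response element (ERSE), which is CCAAT, 9 free bases and CCACG, and through ERSE-II, which is ATTGG, 1 free base and CCACG. Both were searched on both strands of RefSeq promoter windows of GRCh38.p14, which run from 250 bases before to 50 bases after an annotated transcript start. Only exact matches of the fixed bases were counted, so an element with a changed base or outside the window is missed. Windows were found for 28 of the 31 genes. An ERSE was in the window of 7 of them (25%), against 25 of 27305 genes with a window (0.0916%), and an ERSE-II in 3 (10.7%), against 0.0696% of genes. The 12 distinct matches lay in 10 of the 28 genes (35.7%), against 0.161% of all genes. These genes are textbook examples of the element, so the share describes the list and is no test. The matches are printed because the values of the genes that hold them are compared further on. Each is written on the strand on which the element reads, with its fixed bases in capitals.
HSPA5: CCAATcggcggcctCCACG, at chr9:125241391-125241409.
XBP1: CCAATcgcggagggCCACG, at chr22:28800603-28800621.
HSP90B1: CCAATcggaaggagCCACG, at chr12:103930216-103930234.
HSP90B1: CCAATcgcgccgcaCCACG, at chr12:103930321-103930339, against the strand of the gene.
PDIA6: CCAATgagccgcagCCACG, at chr2:10812853-10812871.
CALR: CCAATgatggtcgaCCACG, at chr19:12938384-12938402, against the strand of the gene.
CANX: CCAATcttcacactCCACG, at chr5:179698778-179698796.
CRELD2: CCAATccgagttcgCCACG, at chr22:49918554-49918572, against the strand of the gene.
HERPUD1: ATTGGgCCACG, at chr16:56932025-56932035.
SDF2L1: ATTGGtCCACG, at chr22:21642114-21642124, against the strand of the gene.
HYOU1: ATTGGaCCACG, at chr11:119057380-119057390 and again at chr11:119057274-119057284, both against the strand of the gene.

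Beyond these fixed bases the ERSE matches differ in their 9 free bases, and HYOU1 and HSP90B1 hold 2 elements each. The 250 bases before the start are shown for 5 genes, read 5′ to 3′ on the strand of the gene, with the fixed bases of ERSE and ERSE-II in capitals. An element of the other strand appears there in its reverse complement. HERPUD1, XBP1 and HSPA5 are shown because they fell most with acriflavine among genes with an element. HSP90B1 is shown as a gene with 2 elements that did not pass, and SEL1L as a gene that fell without an exact match to either element.
HSPA5: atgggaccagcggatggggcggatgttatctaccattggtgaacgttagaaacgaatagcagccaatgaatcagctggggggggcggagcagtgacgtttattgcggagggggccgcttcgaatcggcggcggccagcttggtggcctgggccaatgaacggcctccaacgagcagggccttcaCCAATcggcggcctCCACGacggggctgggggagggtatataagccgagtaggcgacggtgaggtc
XBP1: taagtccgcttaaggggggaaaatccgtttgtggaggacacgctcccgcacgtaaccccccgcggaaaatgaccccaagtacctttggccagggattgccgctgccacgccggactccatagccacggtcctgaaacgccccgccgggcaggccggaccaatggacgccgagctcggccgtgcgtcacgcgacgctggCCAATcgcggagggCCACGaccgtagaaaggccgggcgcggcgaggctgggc
HERPUD1: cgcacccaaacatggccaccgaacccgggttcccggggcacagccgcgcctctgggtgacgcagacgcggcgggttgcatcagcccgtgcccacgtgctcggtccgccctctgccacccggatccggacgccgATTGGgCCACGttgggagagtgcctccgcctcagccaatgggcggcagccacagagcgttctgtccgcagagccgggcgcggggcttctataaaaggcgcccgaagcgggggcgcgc
HSP90B1: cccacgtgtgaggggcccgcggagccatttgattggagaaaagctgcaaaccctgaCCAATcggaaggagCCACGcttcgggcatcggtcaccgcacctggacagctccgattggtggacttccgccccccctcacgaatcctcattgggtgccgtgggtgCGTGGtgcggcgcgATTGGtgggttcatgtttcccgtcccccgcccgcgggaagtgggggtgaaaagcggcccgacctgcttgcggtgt
SEL1L: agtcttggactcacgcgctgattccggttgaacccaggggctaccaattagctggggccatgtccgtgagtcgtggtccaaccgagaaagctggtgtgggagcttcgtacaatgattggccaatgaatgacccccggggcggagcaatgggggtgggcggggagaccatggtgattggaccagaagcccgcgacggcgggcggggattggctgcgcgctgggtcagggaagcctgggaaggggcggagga

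The stretches lie at chr9:125241344-125241593 for HSPA5, chr22:28800570-28800819 for XBP1, chr16:56931892-56932141 for HERPUD1, chr12:103930160-103930409 for HSP90B1 and chr14:81533854-81534103 for SEL1L. The first, second and last of these genes are read on the minus strand. Single CCAAT boxes were common, with 89.3% of the 28 genes and 39.7% of all genes holding 1 or more, and CCACG was in 75% and 42.1%. The XBP1-binding motif TGACGTGG (UPRE) was in the windows of HYOU1, where it overlaps an ERSE-II, and VCP, which is 7.14% of the 28 genes against 0.927% of all. The ATF4-type motif CARE, which is TGATG, 1 free base and AA, was in 1 gene, HERPUD1 (3.57% against 4.46%).

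Values are log2 intensities and are compared only between arrays for 1 gene, since probe sets differ in how they hybridise. The array medians lay between 7.16 and 7.21. In control and TGFb1 the arrays numbered 4, which the design text describes as additions to 3 replicates, stood apart from their groups. Over all tested genes the deviation from the group mean had a standard deviation (SD) of 0.375 in TGFb1 replicate 4 and 0.250 in control replicate 4. It was 0.256 in TGFb1 replicate 2 and between 0.0665 and 0.160 in the remaining arrays. Over the 30 tested ER genes, TGFb1 replicate 4 lay on average 0.18 and control replicate 4 0.15 above its group mean. Counts are therefore given with and without both replicates 4.

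Of the markers of ductal epithelial carcinoma cells, 7 of 7 were above the brightness limit, and their mean level per array was 11.53 to 11.93 in control, 10.71 to 10.96 with TGFb1, 11.81 to 11.91 with acriflavine and 11.09 to 11.30 with valproate. Above the limit were 1 of 4 acinar, 0 of 3 endocrine, 0 of 4 endothelial and 1 of 4 leukocyte markers, with the pan-leukocyte gene PTPRC at 3.83 in control. Of 6 fibroblast and stellate markers 3 were above it, and the list's mean was 6.01 to 6.14 in control, 6.62 to 6.97 with TGFb1, 5.92 to 6.04 with acriflavine and 7.20 to 7.38 with valproate, while DCN stayed between 4.10 and 4.24 as a group mean. These levels moved with the groups, and their part in the results was not tested.

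**Figure D1:**
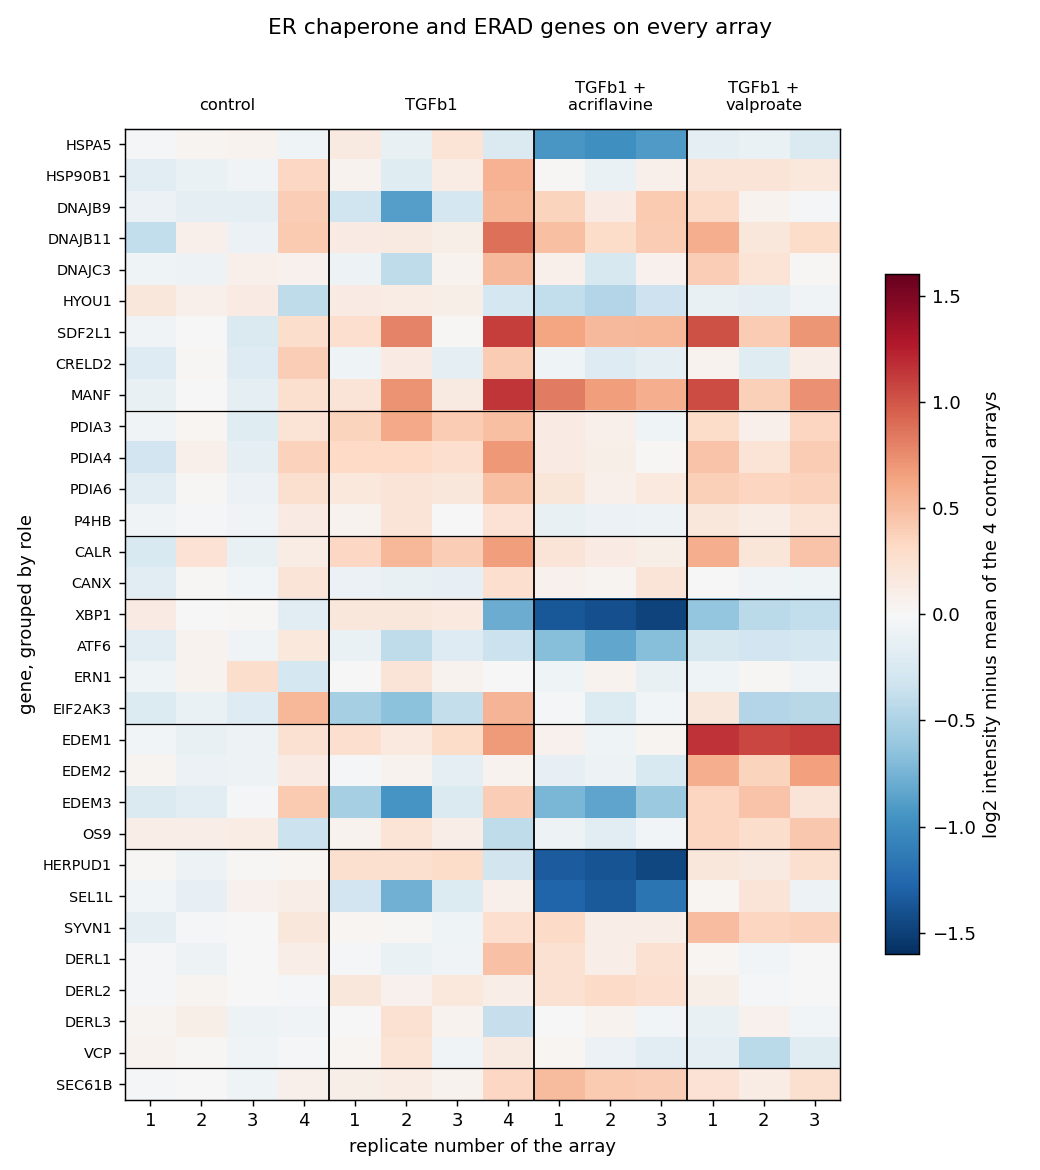
Each row is 1 of the 31 genes and each column 1 of the 14 arrays, with the colour giving the log2 intensity minus the mean of the 4 control arrays. HSPA5, XBP1, HERPUD1 and SEL1L are lowest in all 3 acriflavine arrays, EDEM1 is highest in the valproate arrays, and TGFb1 replicate 4 departs from the other TGFb1 arrays in many rows.

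With TGFb1 alone, 3 of the 30 tested genes rose and 0 fell. They were CALR, a lectin chaperone that holds glycoproteins while they fold, PDIA3, the disulfide isomerase that works with it, and EDEM1, an ERAD lectin. A gene was called changed at a Benjamini-Hochberg adjusted p under 0.05 over all genes tested with limma. Of all genes tested, 8.39% rose and 9.97% fell, so 3 and 0 of 30 stand near or below the background. At an unadjusted p under 0.05 the limma fit gave 10 of the 30 genes. The share of all tested genes at that threshold was not counted, so this number has no background beside it. The median change over the 30 genes was 0.08, against 0.00 over all tested genes.

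CALR read 9.31, 9.78, 9.43 and 9.67 in control replicates 1 to 4 and 9.88, 10.08, 9.94 and 10.21 with TGFb1. Every TGFb1 array was above every control array, and the change was 0.48 ± 0.12 (standard error, SE, of the limma fit; adjusted p = 0.0108). PDIA3 read 12.38, 12.46, 12.24 and 12.65 in control and 12.79, 13.05, 12.84 and 12.92 with TGFb1. The arrays again had no overlap (0.46 ± 0.10, adjusted p = 0.00495). Its other bright probe set, with a change of 0.42, missed the threshold (adjusted p = 0.0673), whereas those of CALR and EDEM1 passed. EDEM1 read 10.20, 10.13, 10.17 and 10.49 in control and 10.51, 10.40, 10.54 and 10.93 with TGFb1. Control replicate 4 lay above 1 TGFb1 array, and EDEM1 passed by a small margin (0.35 ± 0.11, adjusted p = 0.0439); it did not pass in 12 of the 14 fits that left out 1 array each (adjusted p up to 0.117).

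Other folding genes had higher means with TGFb1 without passing. MANF, a small protein that binds HSPA5, was at 0.55 ± 0.20 (adjusted p = 0.071), SDF2L1, which works with the co-chaperone DNAJB11, at 0.55 ± 0.20 (adjusted p = 0.0803), and the isomerases PDIA4 and PDIA6 at 0.40 ± 0.13 (adjusted p = 0.0524) and 0.26 ± 0.10 (adjusted p = 0.0813). The other 2 probe sets of PDIA4 did pass, at 0.48 and 0.50 (adjusted p = 0.0228 to 0.0269). HSPA5, the main HSP70 chaperone of the ER, was at 0.00 with a 95% confidence interval of -0.20 to 0.20. Of the sensors, ATF6 was at -0.26 ± 0.09 (adjusted p = 0.0548) and EIF2AK3 at -0.26 ± 0.25 (adjusted p = 0.523), and XBP1 was at -0.07 ± 0.18 (adjusted p = 0.832).

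TGFb1 and control arrays of the same number deviated together, so the number was also fitted as a block. In that fit 7 genes rose, MANF, SDF2L1, PDIA4 and PDIA6 in addition to the 3, and 1 fell, ATF6 (-0.26 ± 0.09, adjusted p = 0.0462), where 13.2% and 15.8% of all tested genes rose and fell. Without both replicates 4, 6 rose (CALR, PDIA3, EDEM1, PDIA4, PDIA6 and HERPUD1) and 2 fell (EDEM3 and SEL1L), where 12.7% and 16.3% of all tested genes rose and fell. Leaving out TGFb1 replicate 4 alone, 4 fell (DNAJB9, EDEM3, EIF2AK3 and SEL1L; 16.8% of all tested genes), and leaving out control replicate 4 alone, 5 rose, PDIA4 and PDIA6 among them (8.05%). The TGFb1 minus control difference had the same sign in replicates 1 to 3 as in replicate 4 for 18 of the 30 genes.

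**Figure D2:**
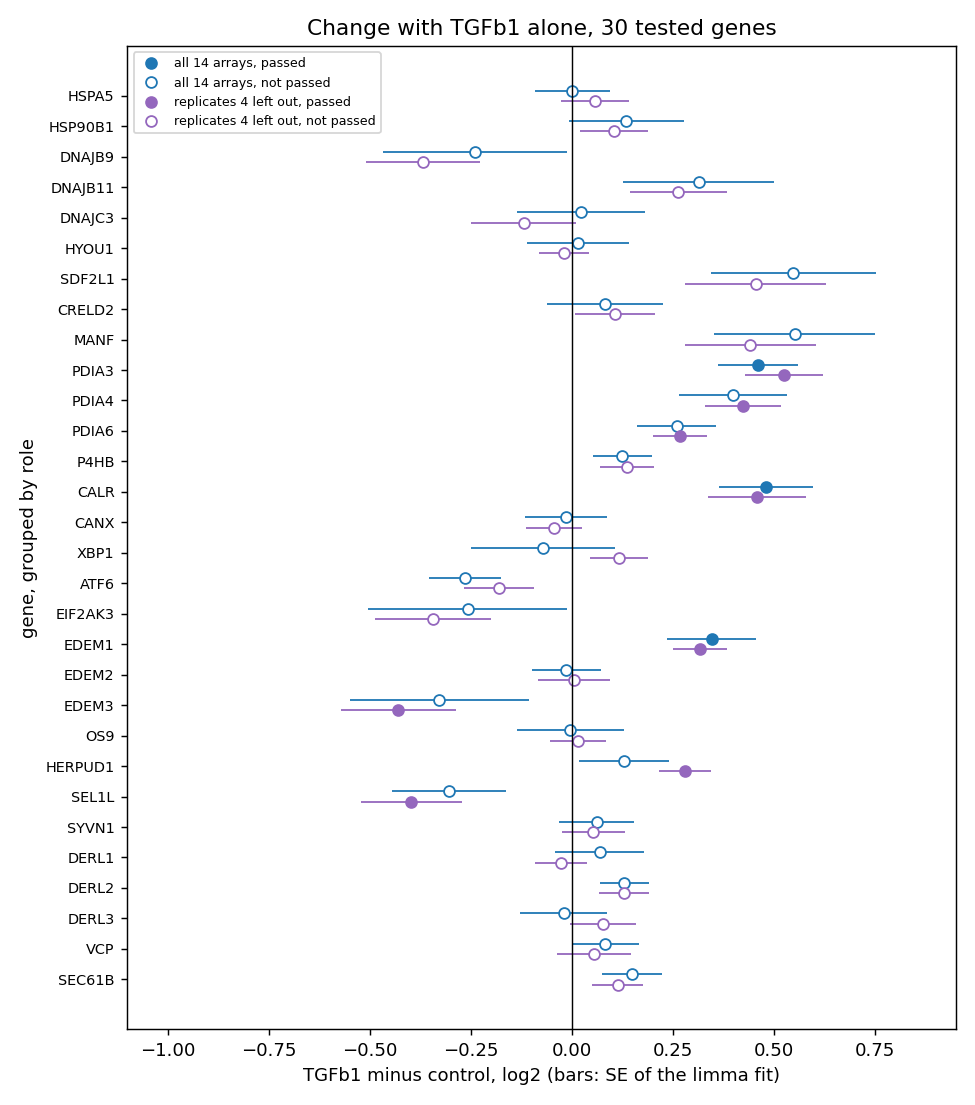
TGFb1 minus control differences in log2 units, with SE bars, are drawn for the 30 tested genes with all 14 arrays (blue) and with both replicates 4 left out (purple), and filled points passed. CALR, PDIA3 and EDEM1 are filled in both, and HERPUD1, EDEM3, SEL1L, PDIA4 and PDIA6 only when the replicates 4 are out.

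The comparison of acriflavine plus TGFb1 with TGFb1 alone asks what the dye changed in stimulated cells. Of the 30 genes 10 fell and 1 rose, where 19.1% of all tested genes fell and 24.5% rose (43.6% either way), so 33.3% of the members fell and 3.33% rose. The largest falls were in HERPUD1, XBP1, SEL1L and HSPA5, and ATF6, HYOU1, PDIA3, CALR, EDEM1 and P4HB also fell. SEC61B, a subunit of the translocation channel, rose. The median change of the 30 genes was -0.14 against 0.03 over all tested genes. In 11 of the 11 genes called, no acriflavine array overlapped the TGFb1 arrays, which also holds for 89.4% of all genes called here and 44.1% of all genes tested.

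HERPUD1, an ER membrane protein that helps assemble the degradation complex, showed the largest fall. It read 11.13, 11.13, 11.17 and 10.59 in TGFb1 replicates 1 to 4 and 9.54, 9.49 and 9.42 in the acriflavine arrays, a change of -1.52 ± 0.12 (adjusted p = 4.72e-07) or 2.87-fold lower. TGFb1 replicate 4 was the lowest TGFb1 array but still stood above every acriflavine array. Control arrays read 10.90, 10.80, 10.90 and 10.91 and valproate arrays 11.06, 11.02 and 11.14, so acriflavine was the only group below 10.

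XBP1, the transcription factor of the ERN1 branch, read 11.77, 11.77, 11.74 and 10.79 with TGFb1 and 10.24, 10.18 and 10.11 with acriflavine. Its change was -1.34 ± 0.19 (adjusted p = 8.6e-05), 2.53-fold lower, and -1.58 without both replicates 4. TGFb1 replicate 4 lay between the other TGFb1 arrays and the acriflavine arrays. The array gives the amount of XBP1 mRNA and not its splicing.

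SEL1L, the adaptor that holds the SYVN1 ligase complex together, read 10.48, 10.02, 10.57 and 10.87 with TGFb1 and 9.51, 9.45 and 9.62 with acriflavine, a change of -0.96 ± 0.15 (adjusted p = 0.000195). HSPA5 read 13.74, 13.47, 13.81 and 13.36 with TGFb1 and 12.66, 12.62 and 12.69 with acriflavine, a change of -0.94 ± 0.10 (adjusted p = 7.53e-06) or 1.92-fold lower. The acriflavine arrays of both genes were tightly grouped. ATF6, the sensor that is cleaved to a transcription factor, read 9.66, 9.36, 9.56 and 9.42 with TGFb1 and 9.09, 8.93 and 9.08 with acriflavine (-0.47 ± 0.10, adjusted p = 0.0014). These 5 genes passed in each of the 26 alternative fits of this comparison, although with the mean of all its probe sets, dim ones included, SEL1L was at -0.53 ± 0.13.

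The other falls were smaller and less firm. PDIA3 read 12.57, 12.52 and 12.37 with acriflavine, below all TGFb1 arrays (-0.41 ± 0.11, adjusted p = 0.0064). It passed in 25 of the 26 alternatives. Its other bright probe set, with a change of -0.31, missed the threshold (adjusted p = 0.153). HYOU1, which exchanges the nucleotide of HSPA5, read 11.90, 11.88, 11.86 and 11.48 with TGFb1 and 11.37, 11.30 and 11.43 with acriflavine (-0.41 ± 0.14, adjusted p = 0.0247). CALR was at -0.34 ± 0.13 (adjusted p = 0.0427), EDEM1 at -0.33 ± 0.12 (adjusted p = 0.0378) and P4HB, a disulfide isomerase that is also a subunit of collagen prolyl hydroxylase, at -0.22 ± 0.08 (adjusted p = 0.0356). CALR, EDEM1, HYOU1 and P4HB lost their call without acriflavine replicate 1 and also without acriflavine replicate 2, which left 6 falls (15.3% and 15.2% of all tested genes). CALR, EDEM1 and P4HB also lost it without TGFb1 replicate 4, and HYOU1 without TGFb1 replicate 1, 2 or 3. CALR passed in 13, EDEM1 and P4HB in 18 and HYOU1 in 20 of the 26 alternatives.

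SEC61B read 12.52, 12.55, 12.49 and 12.76 with TGFb1 and 12.94, 12.85 and 12.83 with acriflavine (0.29 ± 0.08, adjusted p = 0.00931). It is the only gene of the 30 that rose in the fit of all arrays, and without acriflavine replicate 1 it missed the threshold (adjusted p = 0.0501). DNAJB9, a co-chaperone of HSPA5, had the highest difference, 0.54 ± 0.25, but did not pass (adjusted p = 0.0927). It read 9.60, 9.04, 9.64 and 10.46 with TGFb1, and without TGFb1 replicate 4 it rose by 0.80 (adjusted p = 0.00148), as did DERL1 (0.26, adjusted p = 0.00931). With both replicates 4 left out, 5 genes rose (SEC61B, CANX, DERL1, DNAJB9 and EIF2AK3) and 10 fell. Of all tested genes, 32.5% rose and 25.3% fell in that fit.

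Several ER chaperones did not pass with acriflavine in the fit of all arrays. HSP90B1, the HSP90 of the ER, read 13.61, 13.36, 13.68 and 14.11 with TGFb1 and 13.57, 13.45 and 13.64 with acriflavine, and its change was -0.14 (95% confidence interval -0.47 to 0.19). CANX, the membrane-bound lectin chaperone, was at 0.12 (-0.11 to 0.36), and SDF2L1 was at 0.01 (-0.46 to 0.49). With both replicates 4 left out CANX did pass, at 0.22 (adjusted p = 0.0153). By role, 2 of 9 genes of the HSP70 and HSP90 group fell, 2 of 4 disulfide isomerases, 1 of 2 lectin chaperones, 2 of 3 tested sensors with XBP1, 1 of 4 ERAD lectins and 2 of 7 genes of the ligase and retrotranslocation complex. The share over all tested genes was 19.1%, so the counts of the first and the last 2 of these groups (22.2%, 25% and 28.6%) lie near it, and the others rest on 2 to 4 genes each. In the ligase and retrotranslocation group HERPUD1 and SEL1L fell, while the ligase SYVN1 itself was at 0.11 ± 0.10 (adjusted p = 0.399) and the ATPase VCP at -0.16 ± 0.09 (adjusted p = 0.171).

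**Figure D3:**
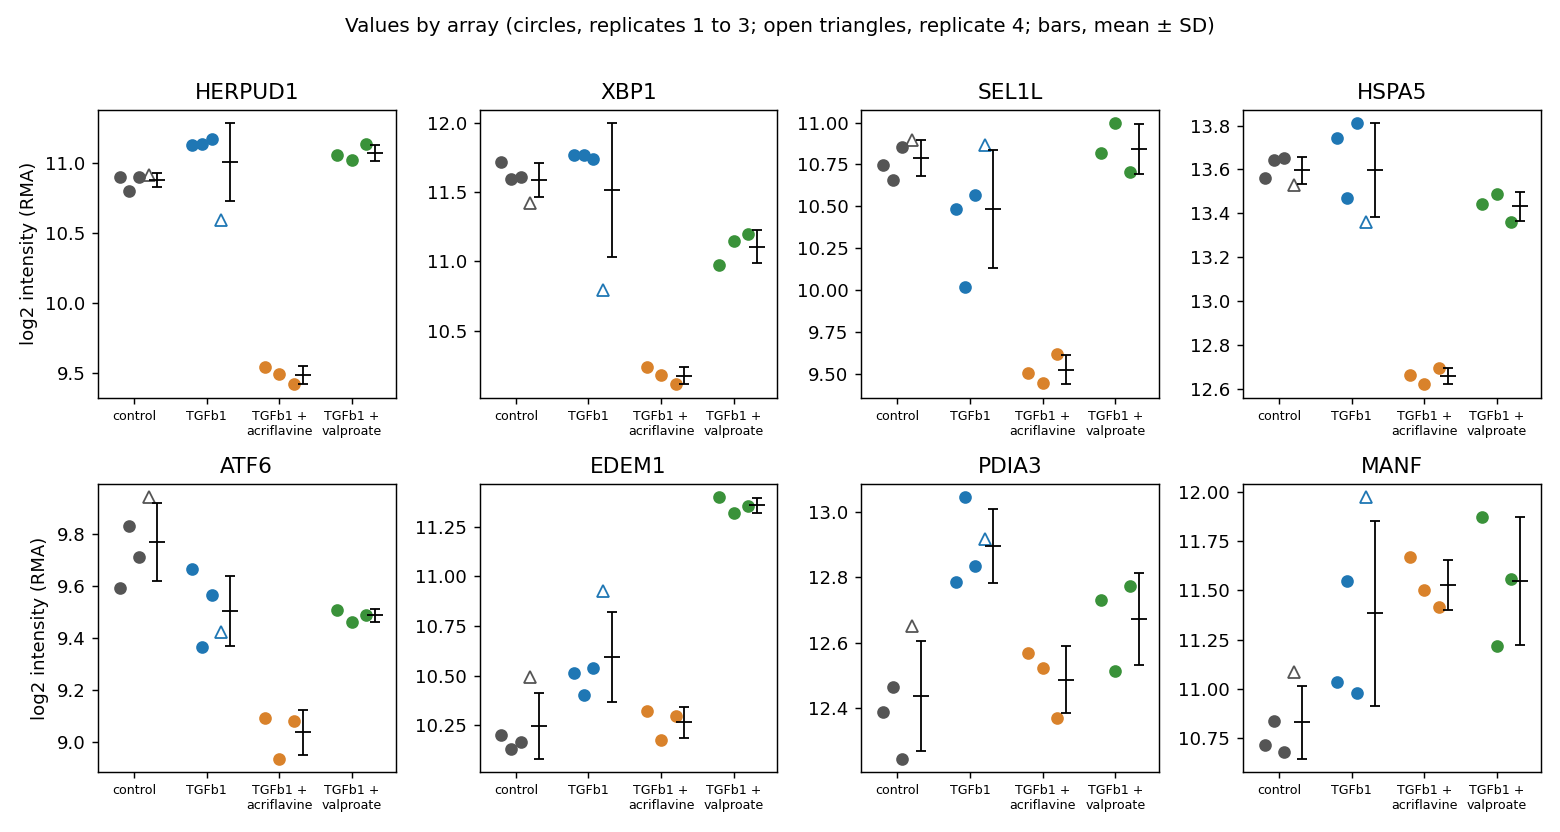
Log2 intensities of 8 genes on every array are drawn by group, with replicates 1 to 3 as circles, replicate 4 as an open triangle and bars for the mean ± SD. In HERPUD1, XBP1, SEL1L, HSPA5 and ATF6 the 3 acriflavine arrays lie below all other arrays, and in EDEM1 the 3 valproate arrays lie above all others.

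The elements shown above were set beside these changes as a description. All 10 genes with an ERSE or ERSE-II were tested, and 5 of them fell and 0 rose (HERPUD1, XBP1, HSPA5, HYOU1 and CALR), with a median change of -0.28 and a range of -1.52 to 0.12. Of the 17 tested genes whose windows hold no exact match to either, 4 fell and 1 rose, with a median of -0.10 and a range of -0.96 to 0.54. Over all tested genes 19.1% fell and 24.5% rose, with a median of 0.03. HYOU1 and CALR of the first set and EDEM1 and P4HB of the second lost their call without acriflavine replicate 1 or 2. Both sets hold large falls and genes near 0: SEL1L and ATF6 fell without an exact match in their windows, and HSP90B1 with 2 elements did not pass. The difference between the sets was not tested.

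**Figure D4:**
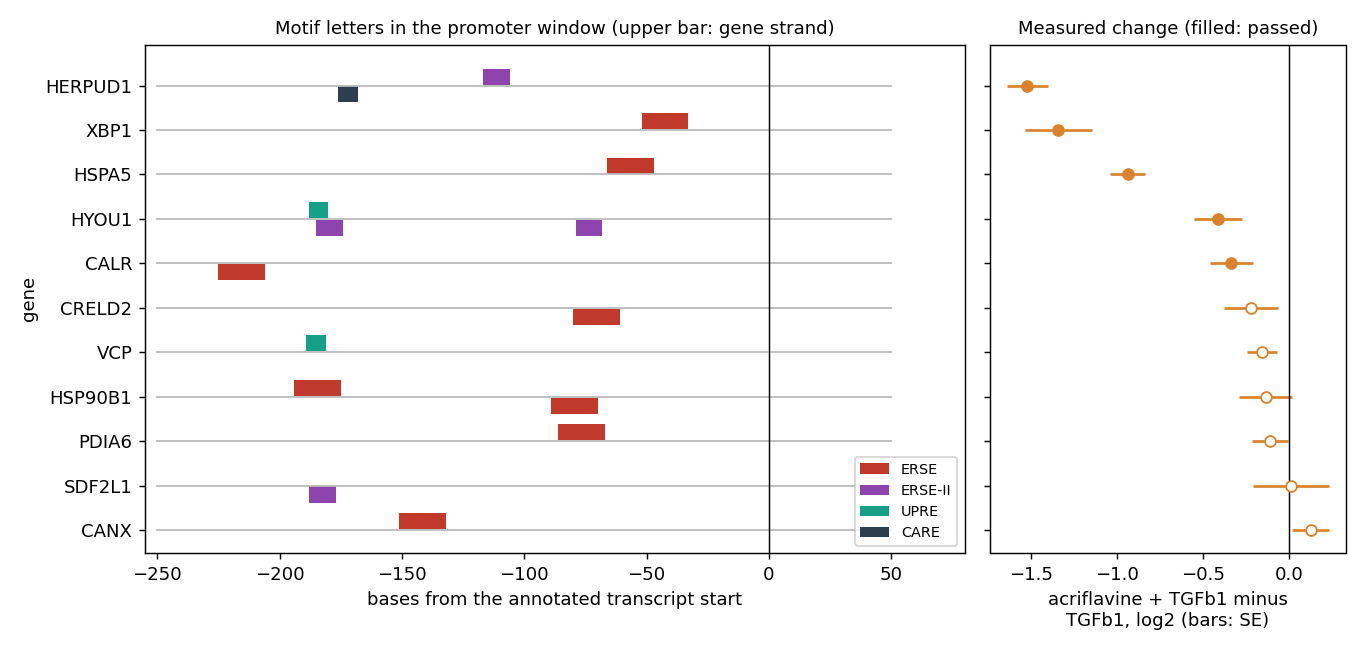
The left panel maps motif matches against distance in bases from the annotated transcript start for the 11 genes with an ERSE, ERSE-II, UPRE or CARE, and the right panel gives each gene's acriflavine plus TGFb1 minus TGFb1 change in log2 units with its SE. Filled points passed, and genes are ordered by change, from HERPUD1 at -1.52 to CANX at 0.12.

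For genes with several probe sets, the others spoke for the same direction. Of the 26 other bright probe sets of called genes, 26 had the sign of the kept one in this comparison and 15 passed. The kept probe set of HSPA5 showed the smallest fall of its 6, and the others reached -1.50, with 5 of 5 passing. The other 2 of HERPUD1 were both at -1.57, and 5 of 5 others of P4HB passed. For EDEM1 the only other was at -0.01 (adjusted p = 0.966), and the mean of its 5 probe sets, dim ones included, at -0.05 (adjusted p = 0.655), for CALR at -0.16 (adjusted p = 0.411), and for HYOU1 0 of 8 others passed (-0.35 to -0.26). PDIA4 did not pass by its kept probe set (-0.32 ± 0.14, adjusted p = 0.0898) but its other 2 did, at -0.60 and -0.50.

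Acriflavine with TGFb1 was also compared with control, which sets each level beside that of cells kept for the same 48 h without TGFb1. Of the 30 genes 7 fell and 3 rose (21.6% and 26.1% of all tested genes). HERPUD1, XBP1, SEL1L, HSPA5, ATF6 and HYOU1 fell against both TGFb1 and control. Their changes against control were -1.39 ± 0.12, -1.41 ± 0.19, -1.26 ± 0.15, -0.94 ± 0.10, -0.73 ± 0.10 and -0.40 ± 0.14, in that order. SEL1L was at -0.72 ± 0.13 with the mean of its probe sets. Control arrays read 11.72, 11.59, 11.61 and 11.42 for XBP1 and 10.75, 10.66, 10.85 and 10.90 for SEL1L. For HSPA5 they read 13.56, 13.64, 13.65 and 13.53, and for ATF6 9.59, 9.83, 9.71 and 9.94. No acriflavine array of these 4 genes reached the lowest control array. For HYOU1 control replicate 4 (11.36) lay among the acriflavine arrays. EDEM3, an ERAD lectin, fell against control alone (-0.72 ± 0.24, adjusted p = 0.0235), where TGFb1 arrays read 9.52, 9.10, 9.81 and 10.44 and acriflavine arrays 9.31, 9.21 and 9.46. PDIA3, CALR, EDEM1 and P4HB, which fell against TGFb1, were at 0.05, 0.14, 0.02 and -0.10 against control and did not pass by their kept probe sets. The only other bright probe set rose for CALR (0.39, adjusted p = 0.0284) and for EDEM1 (0.39, adjusted p = 0.00367). Both genes also rose with the mean of their probe sets. No other bright probe set of PDIA3 or P4HB passed.

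Of the genes higher than in control, MANF rose by 0.70 ± 0.22 (adjusted p = 0.016), SEC61B by 0.44 ± 0.08 (adjusted p = 0.000512) and DERL2, a derlin of the retrotranslocation complex, by 0.27 ± 0.06 (adjusted p = 0.00308). MANF read 10.72, 10.84, 10.68 and 11.09 in control and 11.67, 11.50 and 11.42 with acriflavine. DERL2 read 10.80, 10.85, 10.83 and 10.78 in control and 11.06, 11.12 and 11.09 with acriflavine, so neither overlapped. This comparison and the one with TGFb1 share the acriflavine arrays. Without TGFb1 replicate 4 in the fit 6 rose (30.6% of all tested genes), and without control replicate 4, 5 rose (25.7%). Without both replicates 4, 10 rose and 8 fell (32.6% and 26.4% of all tested genes).

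Valproate with TGFb1 raised the ERAD lectins of the EDEM family against TGFb1 alone. EDEM1, EDEM2 and EDEM3, which remove mannose from misfolded glycoproteins and mark them for degradation, rose, as did the ligase SYVN1, and VCP fell. Among the 30 genes 4 rose and 1 fell, beside 15.1% and 16.2% of all tested genes, so neither count exceeds the background share. The median change was 0.04 against -0.01 over all tested genes.

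EDEM1 read 11.40, 11.32 and 11.35 with valproate, above every TGFb1 array, a change of 0.76 ± 0.12 (adjusted p = 0.00028) or 1.70-fold. EDEM2 read 8.96, 9.04, 8.84 and 9.04 with TGFb1 and 9.57, 9.34 and 9.63 with valproate, a change of 0.54 ± 0.09 (adjusted p = 0.00056). Both passed in each of the 26 alternatives, and neither overlapped between the groups. With the mean of its probe sets EDEM2 was at 0.22 ± 0.07 (adjusted p = 0.02). EDEM3 read 10.39, 10.51 and 10.25 with valproate and overlapped with TGFb1 replicate 4 at 10.44 (0.67 ± 0.24, adjusted p = 0.0486). Its call was lost in 12 of the 14 fits without 1 array, with adjusted p up to 0.146, and without both replicates 4 its rise was 0.90. It was at 0.39 with the mean of its probe sets (adjusted p = 0.162).

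SYVN1 read 9.79, 9.78, 9.68 and 10.03 with TGFb1 and 10.25, 10.11 and 10.13 with valproate (0.34 ± 0.10, adjusted p = 0.0191). VCP read 12.08, 12.26, 11.99 and 12.20 with TGFb1 and 11.89, 11.62 and 11.85 with valproate (-0.34 ± 0.09, adjusted p = 0.00941). Neither gene overlapped between the groups. SYVN1 lost its call without valproate replicate 1 (adjusted p = 0.0868) or TGFb1 replicate 3 (adjusted p = 0.0533), each of which left 2 rises, and VCP without valproate replicate 2 (adjusted p = 0.061). With the mean of its probe sets SYVN1 was at 0.07 (adjusted p = 0.716).

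The genes that fell most with acriflavine did not pass with valproate in the fit of all arrays. HERPUD1 was at 0.07 (95% confidence interval -0.19 to 0.32), ATF6 at -0.02 (-0.23 to 0.19), HSPA5 at -0.17 (-0.38 to 0.05) and SEL1L at 0.36 (0.03 to 0.68, adjusted p = 0.0942). XBP1 read 10.97, 11.15 and 11.20 with valproate, below TGFb1 replicates 1 to 3 but above TGFb1 replicate 4 (-0.41 ± 0.19, adjusted p = 0.126). Without TGFb1 replicate 4, XBP1 fell by 0.65 (adjusted p = 5.14e-05) and HSPA5 by 0.24 (adjusted p = 0.0396), and 7 genes rose (20.4% of all tested genes). Without both replicates 4, 9 genes rose and 4 fell, where 24.2% and 23.7% of all tested genes did.

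**Figure D5:**
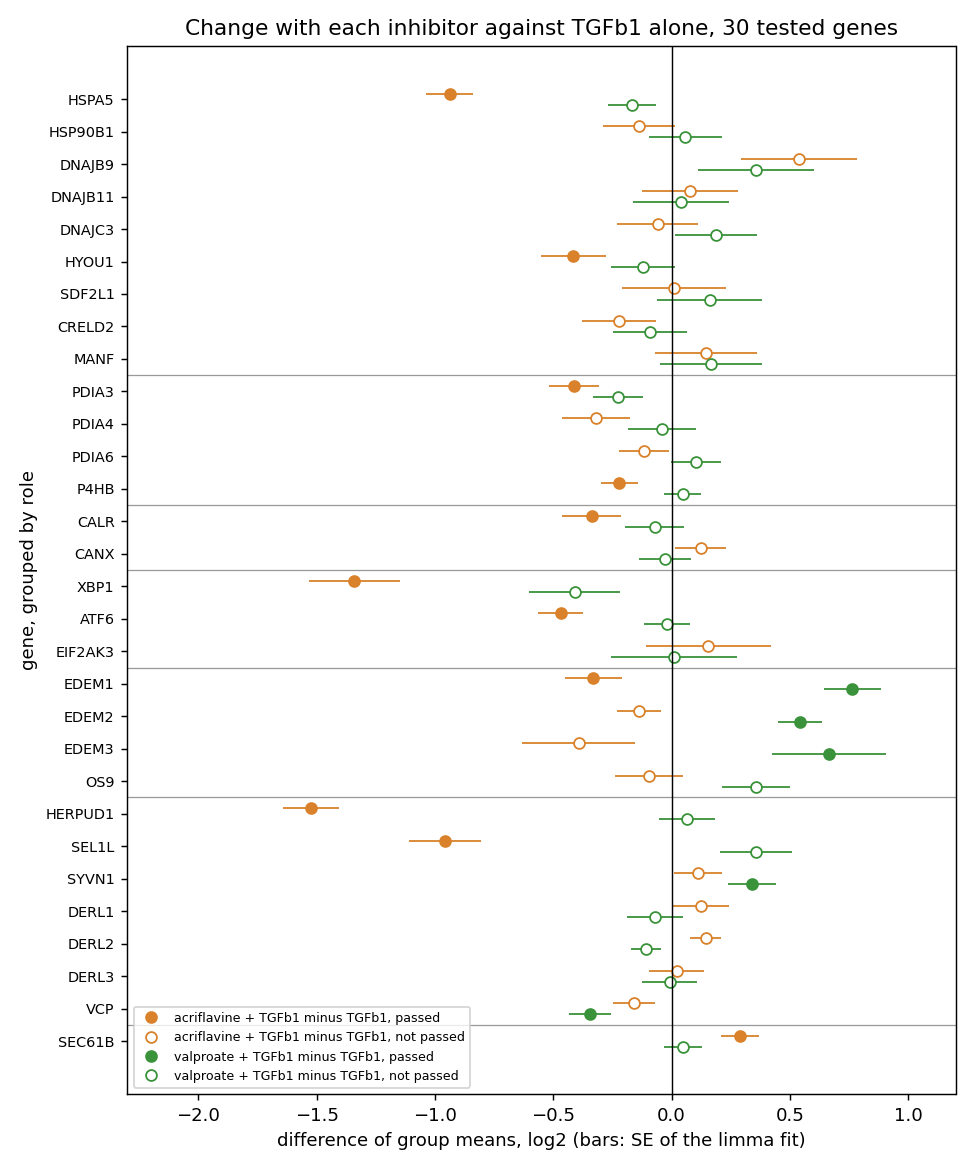
Differences of each inhibitor group from TGFb1 alone are drawn in log2 units with SE bars for the 30 tested genes, acriflavine in orange and valproate in green, filled where the gene passed. HERPUD1, XBP1, SEL1L and HSPA5 lie farthest to the left for acriflavine, and EDEM1, EDEM3 and EDEM2 farthest to the right for valproate.

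Valproate with TGFb1 compared with control gave 7 rises and 2 falls, beside 16.9% and 19.8% of all tested genes (36.7% either way). EDEM1 rose by 1.11 ± 0.12 (adjusted p = 8.55e-06), 2.16-fold, and is the only gene of the 30 past 2-fold in a comparison with valproate against TGFb1 or control. MANF rose by 0.72 ± 0.22, SDF2L1 by 0.71 ± 0.22, EDEM2 by 0.53 ± 0.09, CALR by 0.41 ± 0.13, SYVN1 by 0.40 ± 0.10 and PDIA6 by 0.36 ± 0.10. With the mean of probe sets SYVN1 was at 0.09 ± 0.12 (adjusted p = 0.582) and EDEM2 at 0.21 ± 0.07 (adjusted p = 0.0262). SDF2L1 read 9.70, 9.78, 9.53 and 10.04 in control and 10.78, 10.17 and 10.47 with valproate, a wide spread within both groups. ATF6 fell by 0.28 ± 0.10 (adjusted p = 0.0336) and VCP by 0.26 ± 0.09 (adjusted p = 0.0344). Of their other bright probe sets 1 of 2 passed for ATF6 and 0 of 3 for VCP. HSPA5 did not pass by its kept probe set, but its 5 others were at -0.47 to -0.30 and 4 of them passed. XBP1 was at -0.48 and did not pass in the fit of all arrays. Without both replicates 4 it fell by 0.53 (adjusted p = 4.3e-05).

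This comparison depended on single arrays. Without valproate replicate 1 or replicate 3, 4 genes rose (13.3% and 13.2% of all tested genes), since MANF, SDF2L1 and CALR no longer passed. Without TGFb1 replicate 4 in the fit 11 rose (21.1% of all tested genes). The 2 falls were both lost without control replicate 2, valproate replicate 2 or valproate replicate 3, and 1 was lost without control replicate 1, control replicate 4 or valproate replicate 1. Without both replicates 4, 16 rose and 4 fell (23.6% and 27.3% of all tested genes).

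The inhibitor groups were compared directly, since both contain TGFb1. With acriflavine 10 genes were lower and 2 higher than with valproate, beside 23.3% and 28.3% of all tested genes (51.5% either way). Of the ERAD lectins 4 of 4 were lower: EDEM1 at -1.09 ± 0.13, EDEM3 at -1.06 ± 0.26, EDEM2 at -0.68 ± 0.10 and OS9, a lectin that hands substrates to SEL1L, at -0.45 ± 0.15 (adjusted p = 0.0236). OS9 passed in 20 of the 26 alternatives (adjusted p up to 0.0755), losing its call without acriflavine replicate 1 or 2, without valproate replicate 1 or 3, with the mean of its probe sets, and without those ending in _x_at or _s_at. With the mean of probe sets EDEM1 was at -0.61, EDEM3 at -0.65, EDEM2 at -0.32 and SEL1L at -0.63, and each still passed. HERPUD1 was lower by 3.01-fold (-1.59 ± 0.13, adjusted p = 3.41e-07) and SEL1L by 2.49-fold (-1.32 ± 0.16). XBP1 was at -0.93 ± 0.21, HSPA5 at -0.77 ± 0.11, ATF6 at -0.45 ± 0.10 and P4HB at -0.27 ± 0.08. With valproate SEL1L had a mean of 10.84 ± 0.15 (SD, n = 3). The valproate arrays read 13.44, 13.49 and 13.36 for HSPA5 and 9.51, 9.46 and 9.49 for ATF6. Acriflavine arrays read 10.32, 10.17 and 10.30 for EDEM1 and 8.85, 8.90 and 8.74 for EDEM2, each set below its valproate set. DERL2 (0.25 ± 0.07) and SEC61B (0.24 ± 0.09) were higher. In 12 of the 12 called genes the arrays of the groups did not overlap, as in 99.7% of all genes called and 72.3% of all genes tested. SEC61B lost its call without acriflavine replicate 1 or 2 or valproate replicate 1 or 2, which left 1 rise, and without both replicates 4, 14 genes were lower and 3 higher (29.6% and 34.9% of all tested genes).

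HERPUD1, XBP1, SEL1L, HSPA5 and ATF6 were thus lower with acriflavine than in each of the 3 other groups, by a test of each difference. OS9 read 11.30, 11.47, 11.35 and 10.84 with TGFb1, 11.16, 11.07 and 11.20 with acriflavine and 11.59, 11.53 and 11.68 with valproate. It differed between the inhibitors but passed against neither TGFb1 (-0.10 and 0.36) nor control (-0.10 and 0.35) in the fit of all arrays.

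Across all 6 comparisons 20 of the 30 tested genes passed in 1 or more. The same share over all tested genes was not counted. Single comparisons called 18.4% to 51.5% of all tested genes, so the 20 are not read as a trait of these 30. The 10 that passed in none were HSP90B1, CANX, the co-chaperones DNAJB9, DNAJB11 and DNAJC3, CRELD2, PDIA4, the derlins DERL1 and DERL3, and the sensor EIF2AK3, the kinase PERK. This holds for the kept probe sets in the fit of all arrays. With both replicates 4 left out, HSP90B1, CANX, DNAJB9, DNAJB11, DNAJC3, PDIA4, DERL1 and EIF2AK3 passed in 1 or more comparisons. Other bright probe sets passed for PDIA4 (in 4 of the comparisons), for DERL1 (0.39 against control and 0.47 against valproate, both with acriflavine) and for CANX (1 of 7, acriflavine against valproate). EIF2AK3 read 8.72, 8.83, 8.74 and 9.48 in control, 8.41, 8.29, 8.56 and 9.48 with TGFb1, 8.91, 8.73 and 8.90 with acriflavine and 8.47 to 9.13 with valproate. Its replicates 4 stood above the others in both groups. CRELD2, a secretory-pathway protein with isomerase activity, had group means of 10.68 to 10.90, and DNAJC3, which dampens EIF2AK3 signalling, of 8.93 to 9.18. DERL3 was close to the brightness limit, with group means of 7.22 to 7.25. ERN1, the sensor IRE1, read 5.84 to 6.41 over the 14 arrays, below the limit of 6.89, so that its level was not tested and is not read as absence.

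Other genes of the same pathways were taken from fixed lists. Among 16 tested genes listed for the EIF2AK3 and ATF4 branch, 8 fell and 6 rose with acriflavine against TGFb1 (50% and 37.5%). The list also holds the kinases EIF2AK1, EIF2AK2 and EIF2AK4. Over all tested genes 19.1% fell and 24.5% rose, which is the share to set beside each count that follows. The largest falls were in the stress-induced NUPR1 (-2.60 ± 0.24), CHAC1 (-2.46 ± 0.21), which breaks down glutathione, and the pseudokinase TRIB3 (-2.27 ± 0.36). Of 9 genes listed as ATF6 and XBP1 processing and related factors, 1 fell and 2 rose. They were CREB3L2 (-1.91 ± 0.26), CREB3L1 (0.97 ± 0.19), both membrane-bound transcription factors, and WFS1 (0.52 ± 0.18). Among 19 other ER chaperones and prolyl isomerases 4 fell and 4 rose, with the HSP70 relative HSPA13 at -1.14 ± 0.16 and the isomerases FKBP11 at -0.86 ± 0.10 and FKBP9 at -0.71 ± 0.13.

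The remaining lists held calls in both directions with acriflavine, at 17.4% to 30% of their genes for falls and 15% to 22.2% for rises, beside 19.1% and 24.5% over all tested genes. Of 20 oxidative folding enzymes 6 fell and 3 rose, with the ER peroxidase GPX8 at -2.81 ± 0.09, AGR2, a disulfide isomerase relative of mucous cells, at 2.19 ± 0.21 and the sulfhydryl oxidase QSOX1 at 0.98 ± 0.10. Of 20 genes of N-glycosylation and glycoprotein quality control 5 fell and 4 rose, with the mannosidase MAN1B1 at -1.28 ± 0.11, the folding sensor UGGT1 at -1.20 ± 0.13 and the cargo receptor LMAN1 at -0.65 ± 0.15. Of 27 other ERAD factors 7 fell and 6 rose, with UBQLN2, a ubiquilin, at -0.84 ± 0.09, UBXN8, which binds VCP, at 0.73 ± 0.22 and SELENOS at 0.64 ± 0.16. Of 23 genes of ER targeting and translocation 4 fell and 5 rose, with SEC63 at -0.61 ± 0.14, TRAM2 at 0.58 ± 0.13 and the signal peptidase subunit SEC11C at 0.57 ± 0.08.

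With valproate against TGFb1, 16.2% of all tested genes fell and 15.1% rose. In the same lists the falls were 0% to 26.3% of the tested genes and the rises 0% to 21.1%. In the EIF2AK3 and ATF4 list 3 fell and 1 rose, with ATF5 at -1.31 ± 0.09, VLDLR at 0.60 ± 0.20 and the kinase EIF2AK2 at -0.33 ± 0.12. Among the other chaperones 5 fell and 4 rose, with the isomerases FKBP7 at 1.41 ± 0.27 and FKBP14 at 0.64 ± 0.17 and the collagen chaperone SERPINH1 at -1.01 ± 0.14. Of the oxidative folding enzymes 4 fell and 4 rose, with AGR2 at 0.85 ± 0.21, ERO1B at 0.77 ± 0.15 and TXNDC16 at 0.76 ± 0.24. In N-glycosylation 3 fell and 3 rose, with UGGT2 at 0.70 ± 0.23, whose mean of probe sets went the other way without passing, and the oligosaccharyltransferase subunits DAD1 at 0.25 ± 0.07 and RPN2 at -0.25 ± 0.07. Among the other ERAD factors 5 fell and 3 rose, with FAM8A1, a cofactor of SYVN1, at 1.16 ± 0.16, UBXN8 at -0.90 ± 0.22 and ERLIN1 at -0.56 ± 0.07. In translocation 2 fell and 2 rose, with SEC11C at 0.67 ± 0.08, SRP68 at -0.57 ± 0.08 and TRAM1 at 0.31 ± 0.11. Of the list of ATF6 and XBP1 processing and related factors none passed.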

How the data were processed

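The authors deposited log2 intensity values from RMA (R package affy 1.44.0), per the submitters' processing notes. Which arrays were normalised together is not given in the sources used here. The table held 49193 probe sets on 14 arrays, of which 44898 named 1 gene, 1825 several and 2470 none here, and 44871 matched a RefSeq table by gene ID with 0 symbols changed. The brightest probe set was kept for each of 18129 genes, the dimmest 40% (7252 genes) were left out, and 10877 genes were fitted with 1 mean per group over all arrays with the lmFit and eBayes functions of limma 3.58.1 under R 4.3.3. Adjusted p-values are Benjamini-Hochberg over all genes of a comparison, and the SE is that of the fit. The number of arrays limits the precision. Genes named in sentences were, for each comparison, up to 4 rises and 4 falls without overlap, the sensors and XBP1, 1 or more genes of each role, and up to 3 genes of each pathway list per inhibitor. The members and lists were chosen with earlier results of these data known. The fit was tested on simulated data.

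Replicate numbers were taken as pairs where the deviations from the group means of same-numbered arrays correlated above 0.1 over genes in every pair. They did for TGFb1 and control (0.387, 0.359, 0.543 and 0.705) and in no other comparison. Deviations balance out within a group, so a shift shared by the replicates 4 also makes replicates 1 to 3 correlate. The rule therefore cannot show that replicates 1 to 3 are pairs. Alternatives were other probe set rules, brightness limits, scalings, variance models, fits of 2 groups, the replicate block, the replicates 4 left out or as a batch term, an adjusted p of 0.01 and each array left out. Leaving out TGFb1 replicate 2 with the replicates 4 was added after the data were seen. Promoter windows came from RefSeq (GRCh38.p14). Plots used Python 3.11.15 with matplotlib 3.10.9.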

Additional observations from a re-analysis of the deposited data

Results flagged for a closer look

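In the groups of 4 arrays, 62 combinations of gene and group were checked for an array far from the other 3 (its gap to the nearest array against the whole range), and 14 stood out, where chance gives about 1 in 20. Of these, 13 lay in a replicate 4. TGFb1 replicate 4 was high for PDIA4 (13.51), PDIA6 (13.06), CANX (13.34), DNAJB11 (12.16) and DERL1 (10.98), and low for XBP1 (10.79), HERPUD1 (10.59) and HYOU1 (11.48). Control replicate 4 was high for P4HB (13.30), DNAJB9 (10.31) and EIF2AK3 (9.48) and low for HYOU1 (11.36) and OS9 (10.90). The remaining value was HERPUD1 in control replicate 2, which was low at 10.80 in a narrow group. HYOU1 was low in both replicates 4.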

How the results depend on the processing

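Over the alternatives of the 6 comparisons, no called change of the 30 genes turned its sign. Of the 1300 values of the 50 called changes, 1177 kept their call and 123 lost it, and of the 3368 values of the 130 changes not called, 249 gained one. Of the pathway genes, UGGT2 with valproate against TGFb1 turned to -0.0895 (adjusted p = 0.709) with the mean of its probe sets. Counts are given as rises and falls, with the share of all tested genes called in the same direction and fit in brackets. With the mean of probe sets, acriflavine gave 2 rises against TGFb1 (24.5%) and 6 against control (26.4%), and valproate 2 rises against TGFb1 (14.3%). Without probe sets ending in _x_at or _s_at there were 5 rises for acriflavine against control (25.4%) and 2 falls for valproate against TGFb1 (16%). With the dimmest 60% left out, TGFb1 gave 1 fall (10.3%). Quantile normalisation once more and cyclic loess each gave 0 falls for valproate against control (18.5% and 16.5%). Each gave 1 rise for acriflavine against valproate (26.5% and 25%). Fits of 2 groups alone gave 0 rises for acriflavine against TGFb1 (19.2%) and 16 falls for acriflavine against valproate (31.4%). For valproate against TGFb1 they gave 2 rises (10.3%) and 0 falls, where a similar share of all tested genes fell. At an adjusted p of 0.01, TGFb1 gave 1 rise (4.47%), acriflavine against TGFb1 6 falls (13.4%) and acriflavine against valproate 1 rise (21.8%). Valproate gave 2 rises against TGFb1 (9.8%) and 3 rises (11.7%) and 0 falls (12.9%) against control.

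With the replicate block, TGFb1 gave 7 rises (13.2% of all tested genes) and 1 fall (15.8%). The other comparisons did not meet the rule for pairs. There the block gave 5 rises for acriflavine against TGFb1 (30.1%) and 9 against control (30.8%). It gave 7 rises (21.3%) and 3 falls (20.7%) for valproate against TGFb1, and 15 (21.6%) and 4 (24.3%) against control. With a batch term for the replicates 4, TGFb1 gave 8 rises (15.2%) and 1 fall (17.5%). Acriflavine gave 5 rises against TGFb1 (31.3%) and 10 against control (32.4%). Valproate gave 8 rises (22.8%) and 3 falls (22.3%) against TGFb1, and 15 (23%) and 4 (26%) against control. With the replicates 4 left out these were 6 and 2, 5, 10, 9 and 4, and 16 and 4, in the same order. The shares of all tested genes were then 12.7% and 16.3%, 32.5%, 32.6%, 24.2% and 23.7%, and 23.6% and 27.3%. With TGFb1 replicate 2 left out as well, an alternative chosen after seeing the data, the counts were 6 rises with TGFb1 (10.9%) and 6 (34.9%) and 10 (35.3%) rises with acriflavine. With valproate they were 10 rises (25.1%) and 4 falls (24.2%), and 17 rises (26.5%) and 5 falls (31.4%).

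Leaving out each array in turn gave 2 to 5 rises and 0 to 4 falls for TGFb1, 0 to 3 and 6 to 11 for acriflavine against TGFb1, 2 to 7 and 0 to 3 for valproate against TGFb1, 2 to 6 and 5 to 7 for acriflavine against control, 4 to 11 and 0 to 3 for valproate against control, and 1 to 3 and 8 to 11 for acriflavine against valproate. The share of all tested genes moved between these fits too. For TGFb1, 8.19% of them fell without control replicate 1 and 16.8% without TGFb1 replicate 4. Against TGFb1, 19.1% rose with acriflavine without acriflavine replicate 1 and 29.4% without TGFb1 replicate 4. With valproate, 11.3% rose without valproate replicate 1 and 20.4% without TGFb1 replicate 4. For valproate against control, 13.2% rose without valproate replicate 3 and 21.1% without TGFb1 replicate 4. The cause was not tested. The ranges are therefore not read as a trait of the ER genes. No scaling moved the median of all genes by more than 0.1. The number of arrays and the spread of the replicates 4 limit small changes, and genes near the brightness limit, such as DERL3, have compressed differences.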
